A study of Mus musculus with 6 samples.

Results

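UDP-glucuronosyltransferases (UGTs) were examined in liver RNA of *Mttp-IKO* mice and their littermate controls fed a methionine/choline-deficient (MCD) diet. The 10 genes are Ugt1a1, Ugt1a5, Ugt1a9, Ugt2a3, Ugt2b1, Ugt2b5, Ugt2b34, Ugt2b35, Ugt2b36 and Ugt2b38, found by symbol among the 41388 genes of the count files, and they were chosen by name with earlier results of these data, the genotype differences in these pools, known. Their genotype differences are therefore given as a description, and the adjusted p-values beside them come from the fit over all genes. The other 11 Ugt genes with a row are given beside them.

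All mice were male C57BL/6 animals that carried floxed Mttp alleles and a tamoxifen-inducible Cre recombinase driven by the Villin promoter, which is active in intestinal epithelium. Mttp encodes the microsomal triglyceride transfer protein, which loads lipid onto chylomicrons. *Mttp-IKO* mice had received tamoxifen and controls, labelled wild type, had received vehicle, so tamoxifen and the deletion cannot be told apart. Both groups were adult, ate the MCD diet for 3 weeks and were fasted for 4 h, and liver RNA was sequenced as 3 control pools and 3 *Mttp-IKO* pools. A replicate is a pool of RNA from several mice, so the spread between pools is smaller than that between mice, and p-values measure the spread between pools. In whole liver, fewer cells of a type and less RNA per cell cannot be told apart.

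UGTs are enzymes of the endoplasmic reticulum that join glucuronic acid, carried by UDP-glucuronic acid, to small lipophilic molecules such as bilirubin, steroids, bile acids, thyroid hormone and drugs. The conjugates dissolve in water and leave the hepatocyte through transporters into bile or blood. The Ugt1a enzymes are made from a single locus in which each isoform has its own promoter and first exon, and all of them are spliced to the same later exons. The first exon encodes most of the substrate-binding part and the shared exons encode the part that binds the sugar donor. The Ugt2 enzymes are encoded by separate genes in a cluster.

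The locus structure determines what a count of a Ugt1a gene measures here. The Ugt1a genes lie on the plus strand of chromosome 1 (GRCm38) from 88055388 to 88219004, in the order Ugt1a10, Ugt1a9, Ugt1a8, Ugt1a7c, Ugt1a6b, Ugt1a6a, Ugt1a5, Ugt1a2 and Ugt1a1. In GENCODE M21, 9 transcripts, 1 of each gene, are identical over the 1311 nt that follow the first exon, of which 735 nt are coding. The sequences below show the splice junction in the 3 Ugt1a genes of the set and in Ugt1a2, with 36 nt from the end of exon 1 in lower case and the first 36 nt of the shared exon 2 in capitals.
Ugt1a1: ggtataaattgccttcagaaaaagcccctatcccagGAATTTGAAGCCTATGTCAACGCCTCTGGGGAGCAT
Ugt1a5: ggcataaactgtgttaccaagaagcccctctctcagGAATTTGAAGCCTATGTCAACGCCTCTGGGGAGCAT
Ugt1a9: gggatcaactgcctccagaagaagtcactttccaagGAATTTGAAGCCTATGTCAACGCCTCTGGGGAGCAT
Ugt1a2: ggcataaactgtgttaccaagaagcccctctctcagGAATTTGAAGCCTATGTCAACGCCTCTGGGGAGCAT
The capitals are the same in all 4, and the lower-case parts of Ugt1a5 and Ugt1a2 are also the same. Reads in the shared exons fit every Ugt1a gene and, being ambiguous, were not counted, so the counts of the 3 genes of the set are mainly of reads in their first exons. Ugt1a6a and Ugt1a7c, outside the set, have further exon that no other gene shares (2142 and 1915 nt in all, with first exons of 954 and 915 nt in the transcripts compared). Of the exon length, 892 of 2203 nt in Ugt1a5 and 879 of 2190 nt in Ugt1a9 belong to no other gene. In Ugt1a1 the figure is 385 of 2224 nt, because the antisense gene Gm20528 overlaps its first exon, and 913 nt if only genes on the same strand are considered. Gm20528 was listed at 0 reads in all 6 pools, and whether the counting used strand is not given in the sources used here. Coding parts of the first exons of Ugt1a5 and Ugt1a2 were identical at 81.4% of aligned positions, those of Ugt1a5 and Ugt1a1 at 58.2%, those of Ugt1a5 and Ugt1a9 at 56.4% and those of Ugt1a1 and Ugt1a9 at 55.2%.

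The other 7 genes lie in the Ugt2 cluster on chromosome 5, between 86889767 (Ugt2b34) and 87424203 (Ugt2b38). All are on the minus strand except Ugt2b35. None shares an annotated exon with another gene, but some are close copies. The coding sequences of Ugt2b5 and Ugt2b38 were 97.0% identical, and 41.7% of the 50-nt words of the Ugt2b5 transcript and 37.4% of those of Ugt2b38 occur in transcripts of another gene. A read that fits both was not counted, so the counts of this pair are the less certain ones. The share was 4.55% for Ugt2a3, 2.07% for Ugt2b34, 0.725% for Ugt2b35, 0.326% for Ugt2b36 and 0 for Ugt2b1.

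The 250 bases upstream of each start site (RefSeq, GRCm38.p6) were searched on both strands for letters bound by factors known to act on Ugt genes, and the counts of 3 of the motifs searched are given. AGGTCA, the single repeat that nuclear receptors bind, was in 5 of the 10 windows, and 4 of these were Ugt2b genes (Ugt2b5, Ugt2b35, Ugt2b36 and Ugt2b38). It was in 14.0% of the 32851 windows of all genes. In Ugt2b5, Ugt2b36 and Ugt2b38 it lay within the same surrounding letters, starting 22 to 25 bases upstream, so these are not separate occurrences. The core GCGTG of the AHR element was in 1 of 10 (Ugt1a5) and in 28.2% of all windows, and TGACNNNGC, the core of the NRF2 element, in 0 of 10 and 10.2% of all. A match describes the letters and not binding.

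The pools held 25271585 to 36238734 reads on genes, at which 3 reads, the upper limit that a count of 0 allows, correspond to 0.0828 to 0.119 CPM (counting error only). Mttp in liver, outside the reach of a Villin-driven Cre, ranged from 90.4 to 186 CPM over the 6 pools and cannot check the labels. *Mttp-IKO* pool 3 stood apart, where small RNA genes took 0.289% of the reads, compared with 1.92% to 3.51% elsewhere, and several values below are given without it. Hepatocyte markers were abundant in every pool, at a summed 66960 to 103900 CPM in the controls and 131400 to 179300 CPM in the *Mttp-IKO* pools. Of these 10 markers, 9 had a positive log2 fold change, against 8730 of 17287 genes tested. An adjusted p of 0.05 by edgeR was passed by 0 of them (4 at an unadjusted p under 0.05). The part of such shifts in the results below was not tested.

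Of the 10 genes, 1 had an adjusted p under 0.05, Ugt1a5, which was higher in *Mttp-IKO* liver. Over all 17287 genes tested, 4.01% passed, 0.92% higher and 3.09% lower. Control and *Mttp-IKO* pools were separate, without overlap, in 2 of the 10, Ugt1a5 and Ugt2a3, both higher in *Mttp-IKO*, against 31% of all genes, 14.5% higher and 16.5% lower. Log2 fold changes were above 0 in 5 genes and below 0 in 5, with a median of 0.11 for the 10 and 0.0057 for all genes. All 10 passed the filter on low counts.

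Ugt1a5 showed the largest difference of the set. It had 525, 621 and 575 reads in controls 1 to 3, against 1558, 1944 and 1482 reads in the *Mttp-IKO* pools. After scaling for depth and composition by the trimmed mean of M values (TMM), this corresponds to 13.02, 17.2 and 17.96 CPM, reads relative to library size, in the controls and 50.2, 66.7 and 62.2 CPM in the *Mttp-IKO* pools. Every *Mttp-IKO* pool was above every control pool, by a gap wider than the spread within either genotype. The means were 16.1 ± 2.67 and 59.7 ± 8.498 CPM (SD, n = 3 pools), a 3.72-fold increase (log2 fold change 1.89, SE 0.189, edgeR adjusted p = 0.0111). Leaving out each pool in turn gave log2 fold changes of 1.74 to 2.004. The adjusted p was 0.0509 without control pool 3 and 0.0914 without *Mttp-IKO* pool 2, when 21 and 0 genes of the whole table passed (2539 and 3221 at an unadjusted p under 0.05).

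Ugt1a1 encodes the enzyme that conjugates bilirubin, and its loss causes unconjugated hyperbilirubinemia. Its values were 42.1, 64.9 and 51.1 CPM in the controls and 62.3, 75.1 and 103 CPM in the *Mttp-IKO* pools. The highest control pool lay just above the lowest *Mttp-IKO* pool. The log2 fold change was 0.61 (SE 0.237, edgeR adjusted p = 0.179), and 0.39 without *Mttp-IKO* pool 3.

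Ugt1a9 encodes an enzyme that prefers phenols. It had 13.3, 29.0 and 21.2 CPM in the controls and 13.8, 16.3 and 25.001 CPM in the *Mttp-IKO* pools. The genotypes overlapped throughout, with a log2 fold change of -0.21 (SE 0.320, edgeR adjusted p = 0.739). Without control pool 2, the highest of the 6, it was 0.065.

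Ugt2a3, whose human counterpart conjugates bile acids, had 36.5, 44.3 and 46.3 CPM in the controls and 52.9, 99.6 and 106 CPM in the *Mttp-IKO* pools. All *Mttp-IKO* pools were above all control pools, but pool 1 lay near the controls. Means were 42.3 ± 5.14 and 86.3 ± 29.1 CPM (log2 fold change 1.03, SE 0.265, edgeR adjusted p = 0.0723). Without *Mttp-IKO* pool 1 the adjusted p was 0.0476, and with DESeq2's Wald test, which called 1995 genes in all, it was 0.00694.

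**Figure D1:**
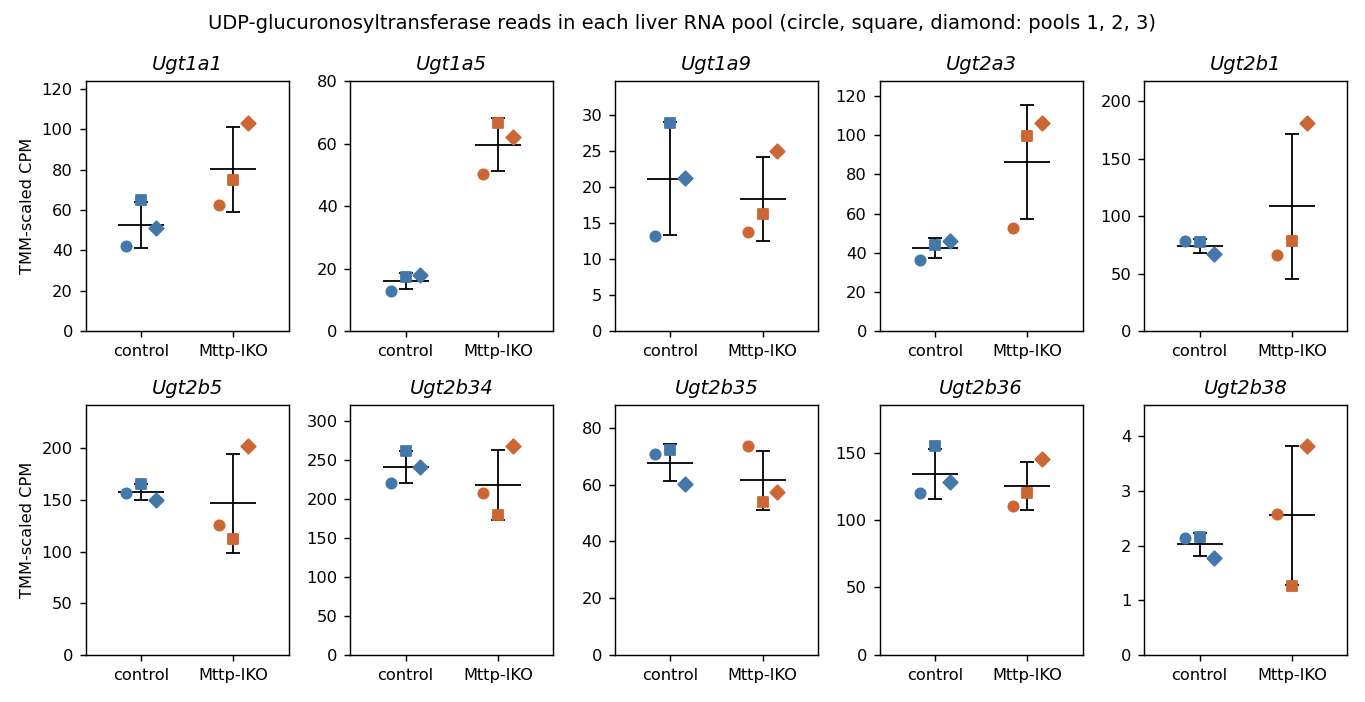
Reads on the 10 UGT genes in each of the 6 liver RNA pools, in TMM-scaled CPM on linear axes from 0 (blue, control; orange, *Mttp-IKO*; circle, square and diamond, pools 1 to 3; black line and bars, mean ± SD). The *Mttp-IKO* pools of Ugt1a5 sit between 50.2 and 66.7 CPM and the controls between 13.02 and 17.96, while in Ugt2b1 pool 3 alone lies above the rest, at 181 CPM.

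The Ugt2b enzymes conjugate steroids, bile acids, opioids and other drugs. None of the 6 Ugt2b genes of the set passed an adjusted p of 0.05 by edgeR (0 at an unadjusted p under 0.05; 0 with DESeq2 or limma-voom), and in each the pools of the genotypes overlapped. Ugt2b1 had 78.2, 77.7 and 67.1 CPM in the controls and 66.4, 78.6 and 181 CPM in the *Mttp-IKO* pools. *Mttp-IKO* pool 3 alone was high, and the log2 fold change of 0.55 (SE 0.356, edgeR adjusted p = 0.392) became -0.034 without it. Ugt2b38, the lowest of the set, was also highest in *Mttp-IKO* pool 3, at 2.13, 2.16 and 1.78 CPM in the controls and 2.58, 1.27 and 3.82 CPM in the *Mttp-IKO* pools (log2 fold change 0.33, SE 0.395, and -0.071 without pool 3).

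Its near copy Ugt2b5 had 157, 166 and 150.0 CPM in the controls and 126, 112 and 202 CPM in the *Mttp-IKO* pools. Here *Mttp-IKO* pools 1 and 2 were below, and pool 3 above, every control pool. The coefficient of variation was 5.05% among control pools and 32.9% among *Mttp-IKO* pools, and the log2 fold change was -0.10 (SE 0.235), or -0.40 without pool 3. Ugt2b34 gave the most reads of the set, with 221, 262 and 241 CPM in the controls and 208, 179 and 268 CPM in the *Mttp-IKO* pools, in the same order of *Mttp-IKO* pools as Ugt2b5 (log2 fold change -0.14, SE 0.195).

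Ugt2b36 had 119.8, 155 and 128 CPM in the controls and 110.1, 120.4 and 145 CPM in the *Mttp-IKO* pools, with a log2 fold change of -0.10 (SE 0.179). Ugt2b35 was at 70.8, 72.1 and 60.3 CPM in the controls and 73.5, 54.0 and 57.3 CPM in the *Mttp-IKO* pools (-0.14, SE 0.171). Unlike the other Ugt2b genes of the set, it was not highest in *Mttp-IKO* pool 3 among the *Mttp-IKO* pools. The edgeR adjusted p-values of the 5 genes other than Ugt2b1 were 0.657 to 0.832.

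Summed over the 7 Ugt2b genes with a row, the level was 651, 736 and 652 CPM in the controls and 589, 547 and 860 CPM in the *Mttp-IKO* pools. The control pools lay between *Mttp-IKO* pools 1 and 2 on one side and pool 3 on the other. Means were 680 ± 49.1 and 665 ± 170 CPM (log2 fold change -0.031, SE 0.220, edgeR adjusted p = 0.951), and without pool 3 the log2 fold change was -0.26.

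The sum of the 9 Ugt1a genes was 113, 163 and 132 CPM in the controls and 171, 206 and 259 CPM in the *Mttp-IKO* pools. The *Mttp-IKO* pools were all higher, by a log2 fold change of 0.64 that did not pass (SE 0.217, edgeR adjusted p = 0.135). Within the locus the make-up differed between genotypes. Ugt1a5 gave 10.6% to 13.7% of the locus reads in the controls and 24.0% to 32.4% in *Mttp-IKO* pools. Ugt1a9 gave 11.7% to 17.8% in control pools and 7.91% to 9.66% in *Mttp-IKO* pools. The shares of Ugt1a6b (17.9% to 24.3% and 12.9% to 17.4%), Ugt1a6a (5.98% to 7.17% and 3.23% to 5.84%) and Ugt1a7c (3.86% to 4.83% and 1.45% to 3.32%) were lower likewise. The shares make up a whole, so a larger share of Ugt1a5 leaves less for the other genes. Ugt1a1 gave 37.1% to 39.8% and 36.4% to 39.9%. These shares do not depend on library scaling.

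Among the Ugt genes outside the set, 0 of 10 tested passed an adjusted p of 0.05 by edgeR (2 at an unadjusted p under 0.05), and DESeq2 and limma-voom also called 0. The Ugt1a genes nearest to Ugt1a5 on the chromosome were Ugt1a6a and Ugt1a2. Ugt1a2 had 3.45, 3.66 and 2.499 CPM in the controls and 4.96, 4.22 and 5.33 CPM in the *Mttp-IKO* pools, without overlap (log2 fold change 0.59, SE 0.240, edgeR adjusted p = 0.192). Ugt1a6a, whose product conjugates small phenols, had 7.87 to 10.4 CPM in the controls and 8.35 to 12.0 CPM in the *Mttp-IKO* pools (0.18). Its neighbour Ugt1a6b, 97.0% identical to it in the coding part of the first exon, was at 23.6 to 29.6 and 22.6 to 45.0 CPM (0.22). With the shared exons included, 97.7% of the 50-nt words of the Ugt1a6a transcript and 78.6% of those of Ugt1a6b occur in transcripts of another gene. A read that fits both was not counted, which limits the counts of this pair. Ugt1a10, the first gene of the locus, had 12, 22 and 15 reads in the controls and 29, 29 and 39 reads in the *Mttp-IKO* pools. These do not overlap, at 0.298 to 0.610 CPM in the controls and 0.935 to 1.64 CPM in the *Mttp-IKO* pools, but the reads are few (log2 fold change 1.36, SE 0.426, edgeR adjusted p = 0.113). Ugt1a8 (0.91, SE 0.736) and Ugt1a7c (-0.32, SE 0.275) overlapped between genotypes.

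Outside the Ugt1a locus, Ugt2b37 had a log2 fold change of -0.30 (SE 0.297). Ugt3a2 and Ugt3a1 encode enzymes that use sugar donors other than UDP-glucuronic acid, and they differed in direction without passing the test, at 0.46 (SE 0.363) and -0.59 (SE 0.424), or 0.094 and -1.14 without *Mttp-IKO* pool 3. Ugt8a, which makes galactosylceramide in myelin-forming cells, was at 0.187 to 0.652 CPM over the 6 pools (log2 fold change 0.16). Ugt2a2 had 1 to 13 reads in a pool and was not tested.

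**Figure D2:**
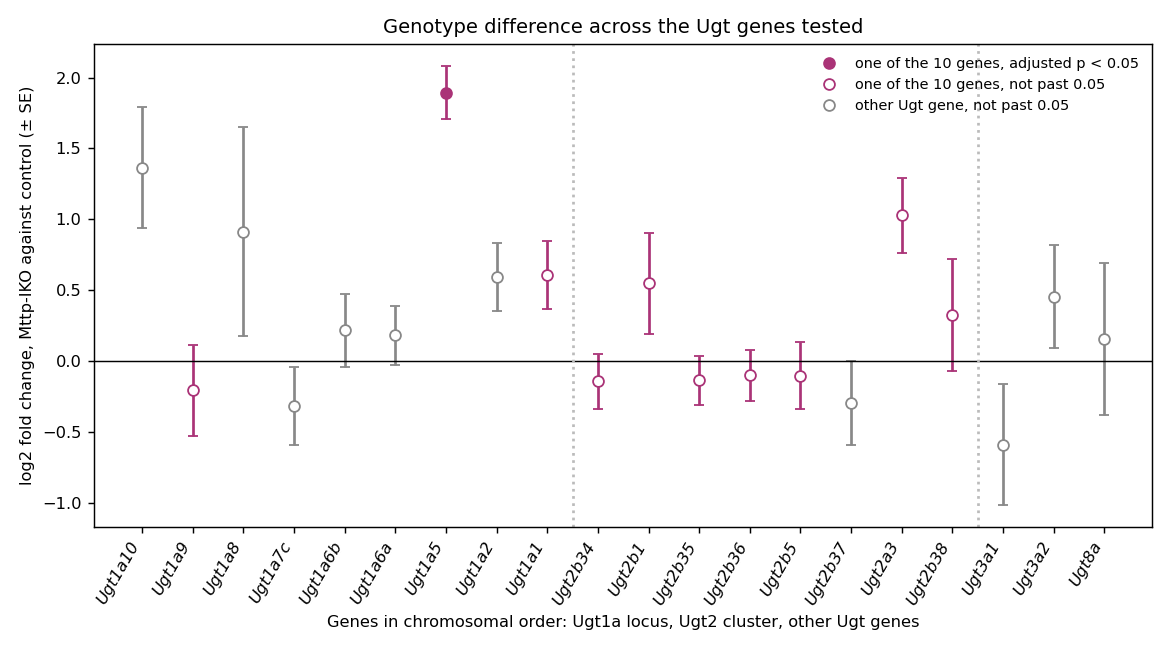
Log2 fold change (± SE, n = 3 pools per genotype, edgeR) of the 20 Ugt genes tested, in chromosomal order within the Ugt1a locus and the Ugt2 cluster, with the other Ugt genes at the right. Ugt1a5, at 1.89, is the filled point, and its neighbours in the locus, Ugt1a6a and Ugt1a2, stand at 0.18 and 0.59.

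Levels of different genes were compared per kilobase of the deposited gene length. In control pools Ugt2b5 ranked first (84.7 ± 4.28 CPM per kilobase, SD, n = 3 pools) and did not overlap Ugt2b36 (65.2 ± 8.84), which overlapped Ugt2b34 (56.0 ± 4.70). Ugt2b35 (38.5 ± 3.68) came next and did not overlap Ugt2b34. Ugt3a2, Ugt2b1 (28.9 ± 2.44), Ugt1a1 (23.7 ± 5.17) and Ugt2a3 (20.0 ± 2.43) followed, and each overlapped the gene ranked before it. Ugt1a6b, the next gene, did not overlap Ugt2a3. It overlapped Ugt1a9 (9.66 ± 3.59), which overlapped Ugt1a5 (7.29 ± 1.21). Ugt2b38 (1.07 ± 0.112) was 17th of the 21. In *Mttp-IKO* pools the first 3 genes were the same, each overlapping the next, and Ugt2b35 (35.0 ± 5.92) did not overlap Ugt1a5 (27.1 ± 3.86), which moved from 11th to 9th place. Ugt2a3 stood at 40.8 ± 13.8 and Ugt1a1 at 36.1 ± 9.43 CPM per kilobase in these pools.

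Because reads in the shared exons were not counted, the deposited length understates every Ugt1a gene. Per kilobase of exon that no other gene on the strand shares, Ugt1a1 stood at 57.7 ± 12.6 in control pools and 87.9 ± 23.0 in *Mttp-IKO* pools, 3rd and 1st of the 21 genes, overlapping Ugt2b36 and Ugt2b34 in control and Ugt2b5 in *Mttp-IKO* pools. If exon overlapped by the antisense gene is also left out, as fits counting without strand, Ugt1a1 was at 137 ± 29.9 and 208 ± 54.5, 1st in both genotypes without overlap with Ugt2b5, the next gene. On the same-strand basis Ugt1a5 was at 18.0 ± 2.99 and 66.9 ± 9.53, 11th in control and 3rd in *Mttp-IKO* pools, where it overlapped its neighbours Ugt2b5 and Ugt2b36. Ugt1a9 was at 24.1 ± 8.94 and 20.9 ± 6.69. The Ugt1a genes then made up 29.3% ± 1.91 of the summed level of the family in control pools and 38.3% ± 2.03 in *Mttp-IKO* pools, against 14.5% ± 1.14 and 20.2% ± 1.41 over the deposited length. The Ugt2b share was 70.2% ± 4.05 and 59.5% ± 4.85 over the deposited length.

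**Figure D3:**
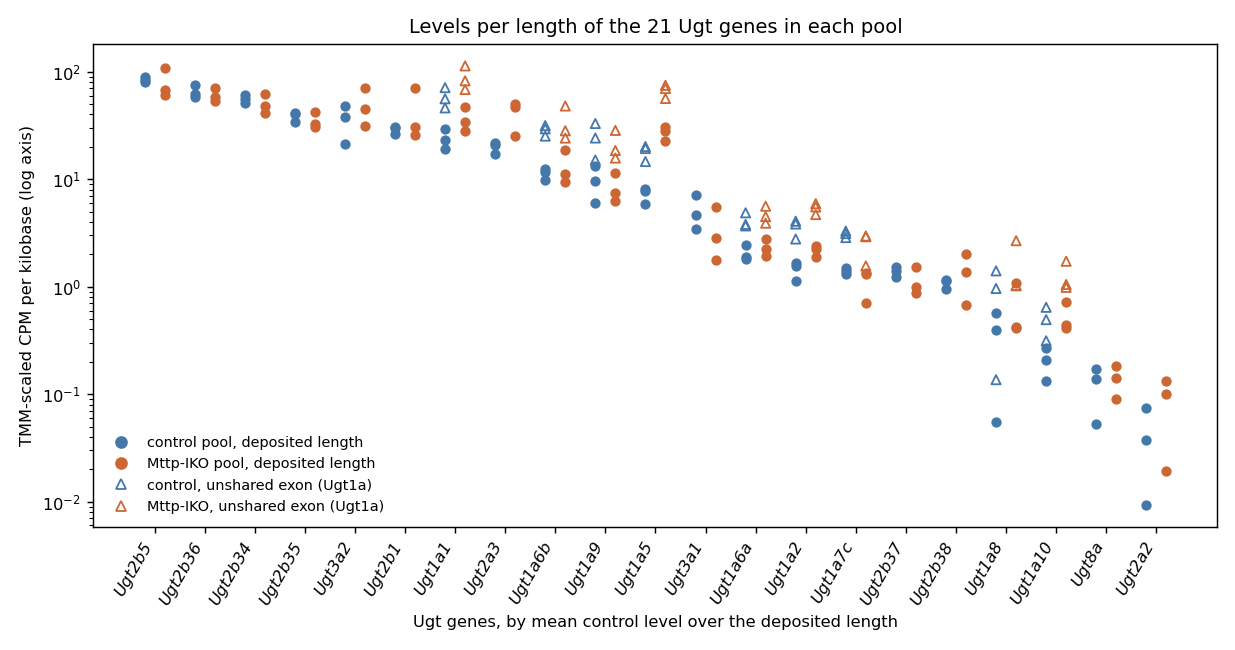
TMM-scaled CPM per kilobase (log axis) of the 21 Ugt genes with a row, in each control pool (blue) and *Mttp-IKO* pool (orange), ordered by the control mean over the deposited length (filled circles). Open triangles use, for the Ugt1a genes, the exon length not shared with another gene on the same strand, which raises Ugt1a1 to a control mean of 57.7 and Ugt1a5 to an *Mttp-IKO* mean of 66.9.

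Genes that supply and use the substrate of the UGTs were compared in the same fit. Of 9 genes that make UDP-glucuronic acid and related sugar nucleotides or carry them into the endoplasmic reticulum, 0 passed an adjusted p of 0.05 by edgeR (3 at an unadjusted p under 0.05), 2 by DESeq2 (Ugdh and Pgm1) and 0 by limma-voom. Ugdh, which oxidizes UDP-glucose to UDP-glucuronic acid, had 172, 147 and 144 CPM in the controls and 74.7, 36.1 and 85.7 CPM in the *Mttp-IKO* pools. All *Mttp-IKO* pools were below all control pools (log2 fold change -1.24, SE 0.302, edgeR adjusted p = 0.0634), and the adjusted p was 0.0433 without *Mttp-IKO* pool 3 and 0.00351 with DESeq2. Pgm1, a phosphoglucomutase upstream of it, was at 99.1 to 113 CPM in the controls and 140.0 to 152 CPM in the *Mttp-IKO* pools (0.50, edgeR adjusted p = 0.0975). Ugp2, which makes UDP-glucose, and Slc35d1, a transporter of UDP-glucuronic acid, had log2 fold changes of -0.011 (SE 0.196) and -0.077 (SE 0.189). Among 8 genes that release or metabolize glucuronate, 0 passed by edgeR as well (2 at an unadjusted p under 0.05), 2 by DESeq2 (Akr1a1 and Miox) and 0 by limma-voom. Akr1a1, which reduces glucuronate, stood at 334 to 378 CPM in the controls and 177 to 254 CPM in the *Mttp-IKO* pools (-0.66, edgeR adjusted p = 0.0937), and Gulo, which catalyses the last step of ascorbate synthesis, had a value of 0.0079 (SE 0.218).

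Bilirubin is made from heme by heme oxygenase and biliverdin reductase, conjugated by Ugt1a1 and exported by Abcc2. Of the 10 genes listed for this chain, 0 passed by edgeR (2 at an unadjusted p under 0.05), 1 by DESeq2 (Abcc3) and 0 by limma-voom, with a median log2 fold change of -0.24. Abcc2 was at 729 to 943 CPM in the controls and 835 to 1352 CPM in the *Mttp-IKO* pools (0.28, or 0.031 without *Mttp-IKO* pool 3, the highest). Fabp1, a fatty acid binding protein that also holds bilirubin, was at 692 to 945 and 161 to 600 CPM, without overlap (-1.06, SE 0.423, edgeR adjusted p = 0.187), and *Mttp-IKO* pool 3 was lowest.

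Of 10 transporters of organic anions and conjugates, Slco1a4 rose (log2 fold change 1.23, SE 0.271, edgeR adjusted p = 0.0486) and Abcc1 fell (-1.22, SE 0.246, edgeR adjusted p = 0.0390). Over all genes tested, 0.92% passed higher and 3.09% lower. Slco1a4 takes organic anions up across the sinusoidal membrane, and its pools were at 45.0 to 83.3 CPM in control and 116 to 190.2 CPM in *Mttp-IKO*. Abcc1, an export pump that hepatocytes express little, was at 18.6 to 34.6 and 10.8 to 13.05 CPM. Abcc3, which exports glucuronides into blood, had 242 to 339 CPM in the controls and 374 to 519 CPM in the *Mttp-IKO* pools and did not pass (0.63, edgeR adjusted p = 0.128). The calls of Slco1a4 and Abcc1 were lost with limma-voom and with *Mttp-IKO* pool 3 left out, among other settings. Of the 6 fits that left out a pool, 1 kept each of them, the fit without control pool 2.

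Of 18 transcription factors linked to Ugt genes or to hepatocyte sex differences, 14 had a log2 fold change above 0, against 8730 of 17287 genes tested. By edgeR 1 passed (6 at an unadjusted p under 0.05), against 0.92% higher and 3.09% lower over all genes. It was Cux2, a factor more abundant in female than in male mouse liver. DESeq2 called 3 (Cux2, Foxa2 and Hnf4a) and limma-voom called Cux2 alone. Cux2 rose from 4.36, 7.43 and 6.996 CPM in the controls to 31.1, 88.8 and 63.8 CPM in the *Mttp-IKO* pools (log2 fold change 3.29, SE 0.401, edgeR adjusted p = 0.0159). Its call was kept in 3 of the 6 fits that left out a pool. The *Mttp-IKO* pools of Cux2 were in the same order as those of Ugt1a5. With 3 pools many genes share an order, and a link between these genes was not tested. Hnf4a, a master regulator of hepatocyte genes, was at 564 to 686 CPM in the controls and 868 to 1318 CPM in the *Mttp-IKO* pools without passing (0.87, SE 0.217, edgeR adjusted p = 0.0664). It passed with DESeq2 (0.0018). Rxra, the partner of many nuclear receptors, had a log2 fold change of 0.35 (SE 0.209), or 0.17 without *Mttp-IKO* pool 3. Chosen after their values were seen, the xenobiotic receptors CAR (Nr1i3, 0.69, SE 0.308) and PXR (Nr1i2, 0.40, SE 0.151) did not pass.

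Genes that CAR and PXR are known to induce were measured as a reference for receptors that also act on Ugt genes. Of 14 tested, 4 rose (Cyp2b13, Cyp2c29, Gadd45b and Slco1a4) and 1 fell (Gstm3) by edgeR, against 0.92% higher and 3.09% lower over all genes, with a median log2 fold change of 0.65. DESeq2 called 8, with Cyp2b9, Cyp2b10 and Por added, and limma-voom called 3, without Gstm3 and Slco1a4. Cyp2c29, a cytochrome P450 responsive to CAR, rose from 32.6, 108 and 51.0 CPM in the controls to 216, 296 and 339 CPM in the *Mttp-IKO* pools (2.15, SE 0.423, edgeR adjusted p = 0.037). Of the 6 fits that left out a pool, 1 kept its call, the one without control pool 2. Cyp2b13, more abundant in female liver, rose from 2.03 to 3.94 CPM in the controls to 13.8 to 41.6 CPM in the *Mttp-IKO* pools (3.15). Gadd45b, a stress-inducible gene, rose by a log2 fold change of 1.24 (SE 0.187). Its call and that of Cyp2b13 were each kept in 2 of the 6 fits that left out a pool. Por, the electron donor of the P450 enzymes, was at 979 to 1122 and 1173 to 1948 CPM (0.66, edgeR adjusted p = 0.152). Of 6 AHR targets tested, 0 passed by edgeR (2 at an unadjusted p under 0.05), 1 by DESeq2 (Tiparp) and 0 by limma-voom, and the values of Cyp1a2 (-0.62, SE 0.523) and Tiparp (1.39, SE 0.539) pointed in different directions. Tiparp was at 10.03, 10.2 and 42.0 CPM in the *Mttp-IKO* pools, and without pool 3 its log2 fold change was 0.37. Of 15 NRF2 targets, 0 rose and 3 fell by edgeR, and 12 were below 0, against 8557 of 17287 genes tested. The 3 were Gsta2 (log2 fold change -2.38, SE 0.289), Ephx1 (-1.21, SE 0.269) and Gstm3 (-1.13, SE 0.242), which encode enzymes of glutathione conjugation and epoxide hydrolysis. DESeq2 called 4, with Abcc3 added, which was higher in *Mttp-IKO* (log2 fold change 0.65). By limma-voom Gsta2 alone was called. The call of Ephx1 was also lost with DESeq2's size factors (edgeR adjusted p = 0.0538) and with the length trend removed (0.0682). Of the 6 fits that left out a pool, 2 kept Gsta2, and 1 each kept Ephx1 and Gstm3. Gstm1, which stands in both lists, did not pass (-0.52, SE 0.262).

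**Figure D4:**
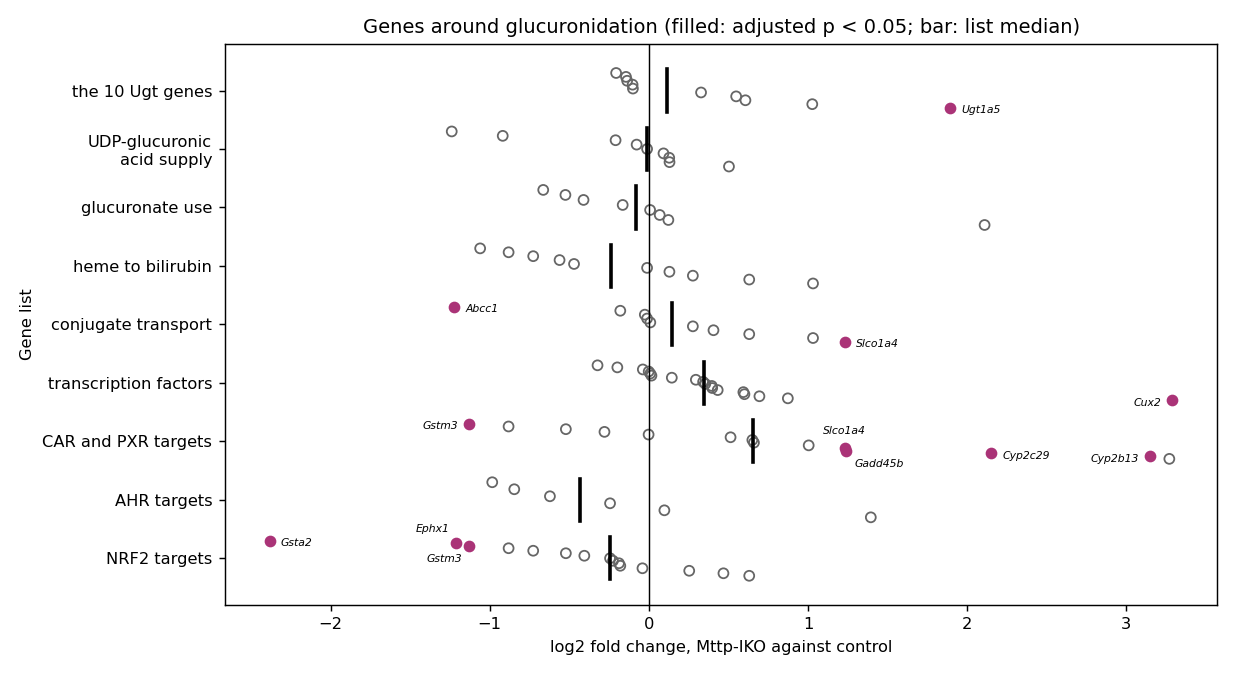
Log2 fold changes (*Mttp-IKO* against control, n = 3 pools per genotype) of the 10 UGT genes and of 8 lists of genes around glucuronidation, 1 point per gene tested, filled where the edgeR adjusted p was under 0.05, with a black bar at the list median. Filled points stand on the right for Ugt1a5, Slco1a4, Cux2, Cyp2b13, Cyp2c29 and Gadd45b, and on the left for Abcc1, Gstm3, Ephx1 and Gsta2.

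Markers of other cell types were read as whole lists, beside 0.92% higher and 3.09% lower by edgeR over all genes tested. Stellate cell markers summed to 1097 to 1768 CPM in the controls and 667 to 761 CPM in the *Mttp-IKO* pools, with 5 of 10 lower and 0 higher past the test. Macrophage markers summed to 668 to 1379 and 438 to 553 CPM, with 2 lower (Ccr2 and Trem2) and 1 higher (Timd4). Endothelial markers summed to 465 to 534 and 471 to 514 CPM, cholangiocyte markers to 156 to 260.1 and 159 to 222 CPM, and lymphocyte markers to 7.85 to 13.6 and 3.31 to 6.29 CPM, with 0 called by edgeR in each (0, 3 and 3 at an unadjusted p under 0.05). Of the intestinal list, the sum of 839 to 2932 CPM came mostly from Apoa4, which liver also makes, and Gpa33 was at 0 in all pools. Kidney markers summed to 0.818 to 3.05 CPM, with Umod and Kap at 0. Striated muscle markers summed to 2.06 to 638 CPM in the controls and 0.892 to 1.68 CPM in the *Mttp-IKO* pools. The controls were not alike, with Acta1 at 40.5, 369 and 0.219 CPM in control pools 1 to 3, against 0.252 to 0.419 CPM in the *Mttp-IKO* pools. Des, of the stellate list, was also highest in control pool 2, at 19.1, 68.1 and 12.5 CPM in the controls. How far these lists move with the UGT values was not tested.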

How the data were processed

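Libraries from liver RNA depleted of ribosomal RNA were sequenced as 3 pools per genotype. The authors aligned reads with STAR 2.5.1a to Ensembl release 76 (GRCm38). With featureCounts 1.4.6-p5 (STAR and featureCounts versions per the submitters' processing notes) they took as the count of a gene the reads that aligned once and fitted that gene alone, and these counts were deposited without normalization. The deposited CPM are counts relative to the total of a pool and the deposited RPKM are CPM per kilobase of gene length, and neither was tested here. The deposited table of all pools holds 40481 of the 41388 genes, in which 276 lines are repeats and were left out and the counts are those of the single files. Groups and replicate numbers came from the sample titles.

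Genes were kept by filterByExpr (minimum count 10, minimum total 15), scaled by TMM (factors 0.898 to 1.11) and compared with edgeR 4.0.16 (quasi-likelihood test, R 4.3.3), with Benjamini-Hochberg adjustment over 17287 genes and a threshold of 0.05. Fold changes are *Mttp-IKO* against control, and levels per length are TMM-scaled CPM per kilobase. The standard error of a log2 fold change was taken as its size divided by the square root of the F statistic. Counts were simulated for 17032 genes with the means, library sizes and dispersion trend of this genotype comparison. Of 200 genes given a log2 fold change of 2 in either direction, edgeR recovered 182 (91%), with 13 unchanged genes called. That change is larger than the change of any of the 10 genes, and smaller changes were not simulated. Every pair of pools differed by more than sampling noise.

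The 10 genes and all lists were chosen with earlier results of these data known. Named were the 10 genes, every other Ugt gene with a row, each called gene of the pathway lists, up to 4 more of a list by mean CPM (4 for the UDP-glucuronic acid list and 2 for the others), and for each of the 10 the gene nearest in pattern. Nr1i2 and Nr1i3 were added after their values were seen, and 1 further transcription factor and the letters searched for it are not reported here. Small RNA genes were those with the deposited biotypes snoRNA, snRNA, miRNA, misc_RNA and scaRNA. Junctions and identities were computed from GENCODE M21 transcripts with Biopython 1.88, and upstream windows are RefSeq's. Pairwise identity counts gaps as differences. Alternatives were other scalings, filters and thresholds, DESeq2 1.42.0, limma-voom (limma 3.58.1), robust dispersion, protein-coding genes alone, a block for the replicate number, the removal of a loess trend with gene length (span 0.3), and leaving out each pool. Figures were drawn with matplotlib 3.10.9 (Python 3.11.15). Protein sequences were not used here.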

Additional observations from a re-analysis of the deposited data

How the results depend on the processing

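The log2 fold change of Ugt1a5 stayed between 1.71 and 2.04 over the scalings, filters and tests and between 1.74 and 2.004 with each pool left out; its call was lost at a threshold of 0.01 and without control pool 3 or *Mttp-IKO* pool 2. Over all genes, 694 were called by edgeR, 1995 by DESeq2's Wald test, 428 by limma-voom, 1658 at a threshold of 0.1, 5 at 0.01, and 0 to 892 with a pool left out. The number of the 10 genes called, and likewise of all Ugt genes, was 2 (Ugt1a5 and Ugt2a3) with DESeq2, with no filter beyond 1 read and at a threshold of 0.1, 0 at 0.01, and 0 to 2 with a pool left out. Total counts without TMM moved the median of all genes to -0.18 and removal of the length trend to 0.12, against 0.0057. Without the length trend the values of Ugt2b5 (0.086), Ugt2b35 (0.028), Ugt2b36 (0.058), the Ugt2b sum (0.15) and Ugp2 (0.10) turned positive. With total counts those of Ugt1a6a (-7.3e-05), Ugt8a (-0.039) and Gulo (-0.16) turned negative, as did Gulo with upper quartile scaling (-0.019) and without the filter (-0.017). Ugp2 turned positive with DESeq2's size factors (0.0031), its Wald test (0.0031), limma-voom (0.0053) and protein-coding genes alone (0.0046). With a pool left out, the sign changed in Ugt1a9 (-0.49 to 0.065), Ugt1a6b (-0.13 to 0.41), Ugt2b1 (-0.034 to 0.80), Ugt2b5 (-0.40 to 0.059), Ugt2b38 (-0.071 to 0.65), Ugt8a (-0.21 to 0.48), the Ugt2b sum (-0.26 to 0.092), Cyp1a2 (-1.10 to 0.041), Gulo (-0.19 to 0.17), Slc35d1 (-0.16 to 0.077) and Ugp2 (-0.17 to 0.13), while the Ugt1a sum ran from 0.47 to 0.77. The cause of these changes was not tested. Counted per kilobase of unshared exon, the Ugt1a share of the family's level was 29.3% in control and 38.3% in *Mttp-IKO* pools, or 39.3% and 48.8% where exons shared with the antisense gene were also left out. With a pool left out, the shares over the deposited length ran from 13.9% to 15.1% and from 19.4% to 20.8%. The replicate numbers are shared by the genotypes. The deviations of same-numbered pools correlated at 0.139, 0.112 and 0.00698, and those of differently numbered pools at -0.125 to 0.0208. Same-numbered pools were not taken as pairs. With the number as a replicate block, 592 genes were called, 1 of the 10 among them, and Ugp2 stood at 0.0058. In the Ugt1a locus the reads in shared exons were not counted, in the least abundant Ugt genes (Ugt1a8, Ugt1a10, Ugt8a and Ugt2a2) the reads are few, and pooling leaves the spread between mice unmeasured.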

Other observations

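For each of the 10 genes, the gene with the most similar pattern was sought among 9244 tested genes with an average log2 CPM of at least 3, as the smallest root mean square difference of log2 CPM, centred on the gene's own mean, over the 6 pools. With 6 pools and this many candidates a close match is found for most patterns, and the values describe likeness alone. The nearest gene was Ppp1r3b for Ugt1a5, at 0.228, the widest gap of the 10. For Ugt1a1 it was Pm20d1 (0.0554), for Ugt2a3 it was Ppargc1a (0.104) and for Ugt1a9 it was Rgn (0.0951). Among the Ugt2b genes, the nearest were Aadac for Ugt2b36 (0.0442), C77080 for Ugt2b5 (0.0513), Utrn for Ugt2b34 (0.0587), Timm50 for Ugt2b35 (0.0623), Kyat1 for Ugt2b38 (0.0925) and Med13l for Ugt2b1 (0.0962). Within the set, Ugt2b34 lay nearest to Ugt2b5 (0.115) and Ugt2b36 (0.123).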
